A study of Homo sapiens with 39 samples.

Results

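The level of MITF and of each of its transcripts was followed in 39 RNA-seq libraries. These came from the human melanoma lines A375 and WM115, both established. The gene is ENSG00000187098 (chromosome 3, 69739435 to 69968337, plus strand, GRCh38, GENCODE 29), 1 of 60671 genes in the deposited gene table. All transcripts that carry its name were taken from the deposited transcript table, 16 of 173728, and GENCODE 29 lists 18. Per the labels, the clones of both lines lack a stretch of an enhancer region of SOX10, called R1 or R4. The A375 set holds 4 wild-type (WT) libraries, 3 and 4 from the clones 1.1 and 1.2 without R1, and 4 and 3 from the clones 4.1 and 4.2 without R4. In WM115 the numbers are 4 (WT), 5 and 3 (1.1 and 1.2), and 3 and 3 (4.1 and 4.2). The library names of all WM115 WT libraries carry the same set label, wt5, so WT there may be 1 wild-type isolate of the line. A further 3 WM115 libraries came from clone 1.3, whose title numbering belongs with R1 and whose genotype label says R4, so it was kept apart. Each clone number stands for 1 clone, and no label ties a library to a separate culture, so the p-values below rest on spread between libraries, which may be technical. Unless 2 groups are named, limma p-values for a clone against WT use 1 estimate of spread per gene. That estimate is over all libraries of the line, the other clones included. Exceptions are R1 against R4, with clones as units, and the correlations over group means.

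MITF is a basic helix-loop-helix leucine zipper transcription factor and the master regulator of the melanocyte lineage. It switches on the pigment enzymes and melanosome proteins, as well as genes of survival and of the cell cycle, and melanomas with little MITF are known for an invasive, dedifferentiated state. The gene has several promoters, each with its own first exon, joined to shared downstream exons that encode the DNA-binding and zipper domains. The A start lies furthest upstream and is used in many tissues, whereas the M start lies closest to the shared exons and is used mainly in melanocytes and melanoma cells. SOX10, PAX3, CREB and LEF1 are known activators of the M promoter, so these libraries show the level of MITF where an enhancer of one of its activators is deleted.

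The sequences around these starts show how unlike they are, and are given for the A and M starts as the 250 bases before and 50 bases after the RefSeq start (GRCh38.p14, plus strand, 5′ to 3′). Capitals mark matches to the motifs searched on both strands, which were ACAAT and ACAAAG for SOX factors, TGACG for CREB, CTTTGA for LEF and TCF factors, and the E-boxes CATGTG and CACGTG. The A window is chr3:69739214-69739513 and the M window is chr3:69936342-69936641.
MITF A start: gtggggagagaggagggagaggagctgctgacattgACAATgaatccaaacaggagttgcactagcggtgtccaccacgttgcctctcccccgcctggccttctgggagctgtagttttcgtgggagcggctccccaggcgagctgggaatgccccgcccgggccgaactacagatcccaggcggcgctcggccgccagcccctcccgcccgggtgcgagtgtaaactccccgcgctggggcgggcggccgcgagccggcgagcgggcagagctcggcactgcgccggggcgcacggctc
MITF M start: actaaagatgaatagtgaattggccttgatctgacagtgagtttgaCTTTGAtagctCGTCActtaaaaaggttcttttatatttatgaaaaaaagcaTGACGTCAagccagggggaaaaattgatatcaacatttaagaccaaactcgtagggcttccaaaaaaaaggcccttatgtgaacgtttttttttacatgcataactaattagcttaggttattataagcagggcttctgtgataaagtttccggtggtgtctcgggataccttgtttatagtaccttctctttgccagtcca

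The A window had a GC content of 70.3%, against 37% in the M window and a median of 58.7% over 35116 RefSeq promoter windows of the same length. The M window held TGACG 3 times, once 193 bases before the start and in an overlapping pair 152 and 149 bases before it, and 24.6% of all windows held that motif. It also held 1 CTTTGA, 204 bases before the start, a motif found in 12.9% of windows. The A window held 1 ACAAT, 214 bases before its start, a motif found in 27.4% of windows. ACAAAG (16.1% of windows), CATGTG (11.1%) and CACGTG (7.26%) were in neither window, which says only that these letters are not in these 300 bases.

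Of the 16 transcripts, 5 begin at the A start, 2 at the H start and 6 at the M start, taken as within 1 kb of the first base of MITF-205. The other 3 begin at separate places, 19269, 23289 and 24121 bases downstream of the A start, and are grouped as the middle start. The M start lies 197157 bases downstream of the A start. Summed transcript TPM (a share of the library corrected for transcript length) equalled gene TPM to within 0.0006 in every library, so the starts divide the gene level exactly. MITF-201 and MITF-205 are the M-start transcripts with the highest mean level, and MITF-216 and MITF-203 those of the A start. All of them share the downstream exons, and an assignment of reads between them rests on the quantification the authors used. A transcript listed at 0 TPM may be an estimate that failed. The only other gene that overlaps MITF in GENCODE 29, RN7SL418P on the minus strand, reached at most 0.268 TPM.

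**Figure D1:**
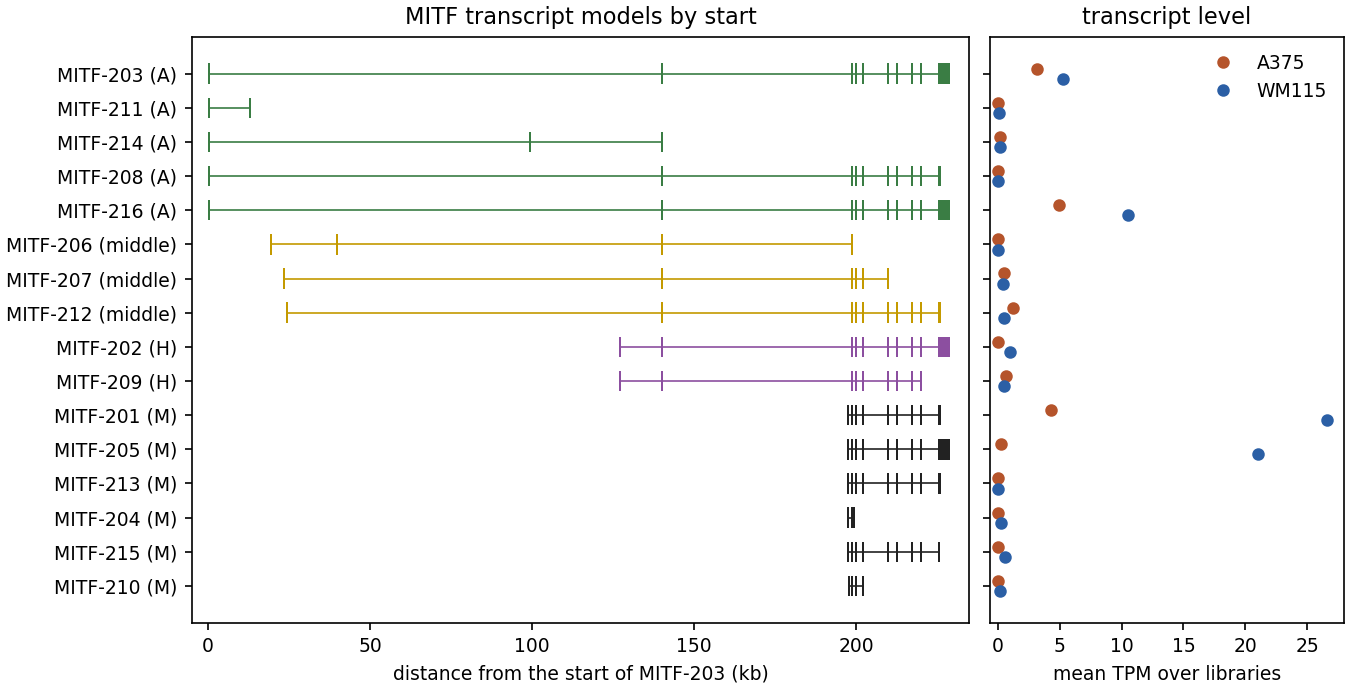
MITF transcript models by start (left, exons as blocks against the distance in kb from the start of MITF-203) and mean TPM of each transcript over the 18 A375 and 21 WM115 libraries (right). The A-start models begin at 0 kb, the M-start models only near the end of the gene, and MITF-201 and MITF-205 had the highest means in WM115.

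MITF-201 encodes 413 codons and MITF-205 encodes 419, and both are M-start messages. They differ by the alternative first 18 bases of exon 6 (chr3:69951812-69951829, exonic, plus strand), which add 6 residues in MITF-205 and are shown in capitals because the ratio of both forms differed between groups of libraries. MITF-205 also carries 2668 more bases at its 3′ end.
MITF-205 junction: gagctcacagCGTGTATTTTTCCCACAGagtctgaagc
MITF-201 junction: gagctcacagagtctgaagc

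The cell type label was checked first. SOX10 was between 380.7 and 876.4 TPM in every A375 library, whereas 4 of 8 melanocytic markers stayed under 1 TPM in all of them. In WM115 all 8 markers passed 1 TPM in at least 1 library. EPCAM, the epithelial marker, reached at most 0.397 TPM and the 2 leukocyte markers summed to at most 0.483 TPM. The 4 fibroblast markers (DCN, LUM, PDGFRA and COL1A2) summed to 1.05 to 10.8 TPM in A375 and 370 to 862 TPM in WM115. In WM115, DCN was called higher in clone 4.1 (1.74, limma adjusted p = 0.00152) and LUM lower in clones 1.1, 1.2 and 4.2 (-2.34, -2.02 and -1.71, limma adjusted p = 0.00146, 0.011 and 0.025), and in A375 LUM was higher in clone 1.2 (1.48, limma adjusted p = 0.00199). The 3 keratinocyte markers summed to 0.062 to 30.4 TPM in A375, where KRT14 had 26.4 TPM in WT library 4, and to 0.09 to 7.65 TPM in WM115. Among them, KRT14 was called higher in WM115 clones 4.1 and 4.2 (1.5 and 1.34, limma adjusted p = 0.000385 and 0.00132), and TP63 in WM115 clone 1.2 (1.69, limma adjusted p = 0.00467). These differences are clone minus WT on the log2(TPM + 1) scale, and their part in the results was not tested. The share of TPM from the mitochondrial genome was 13.7% to 15.6% in WM115 WT, 4.86% to 14.4% in clone 1.1, 8.75% to 11.8% in clone 1.2, 5.25% to 10.8% in clone 4.1, 4.71% to 12.7% in clone 4.2 and 8.31% to 19.4% in clone 1.3. Ribosomal protein genes held 11.1% to 12.8% of TPM in WM115 WT and 15.1% to 17.4% in clones 1.1, 1.2, 4.1 and 4.2, with no overlap. In clone 1.3 they held 16.4%, 16.8% and 10.6%. The part of this share in the results was not tested. Library 3 of WM115 clone 1.2 stood apart, with 9.56 TPM of SOX10 and 4.87 TPM of S100B against 272 TPM and 295 TPM or more in the other 2 libraries of that clone. TPM carries no read count, and sequencing depth is therefore unknown.

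MITF was far higher in WM115 than in A375 when both were wild type. The A375 WT libraries had 22.2, 21.5, 26.7 and 18.7 TPM (22.3 ± 3.30, SD, n = 4). The WM115 WT libraries had 149, 139, 60.5 and 164 TPM (128 ± 46.4, SD, n = 4). The groups did not overlap, and WM115 varied more, since its library 3 had less than any other WT library of the line. On the log2(TPM + 1) scale A375 was lower by 2.39 (SE 0.29, limma adjusted p = 0.000126), a comparison in which 22.7% of 16126 genes were called, with 13.1% of the 16126 lower in A375. A call here means an adjusted p under 0.05 and a log2 difference of at least 1 in size. SOX10 did not follow that order, with 682 ± 35.6 TPM in A375 WT and 507 ± 48.3 TPM in WM115 WT (SD, n = 4 each; log2 difference 0.43, SE 0.13, limma adjusted p = 0.0202, under the fold minimum).

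The composition of the message also differed between the wild-type lines. M-start transcripts made up 51.8%, 43.99%, 63.1% and 37.0% of MITF TPM in A375 WT and 78.0%, 77.4%, 67.0% and 83.4% in WM115 WT. The means were 49% ± 11.2 and 76.4% ± 6.86 (SD, n = 4 each), with no overlap (exact permutation test, two-sided, p = 0.0286, the smallest that 4 against 4 libraries allow). In level, M-start transcripts averaged 11.2 ± 4.21 TPM in A375 WT and 100.3 ± 41.8 TPM in WM115 WT. A-start transcripts averaged 10.2 ± 1.37 and 22.5 ± 4.24 TPM. So A375 wild type carried nearly equal amounts of both messages, whereas in WM115 the melanocyte form predominated.

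**Figure D2:**
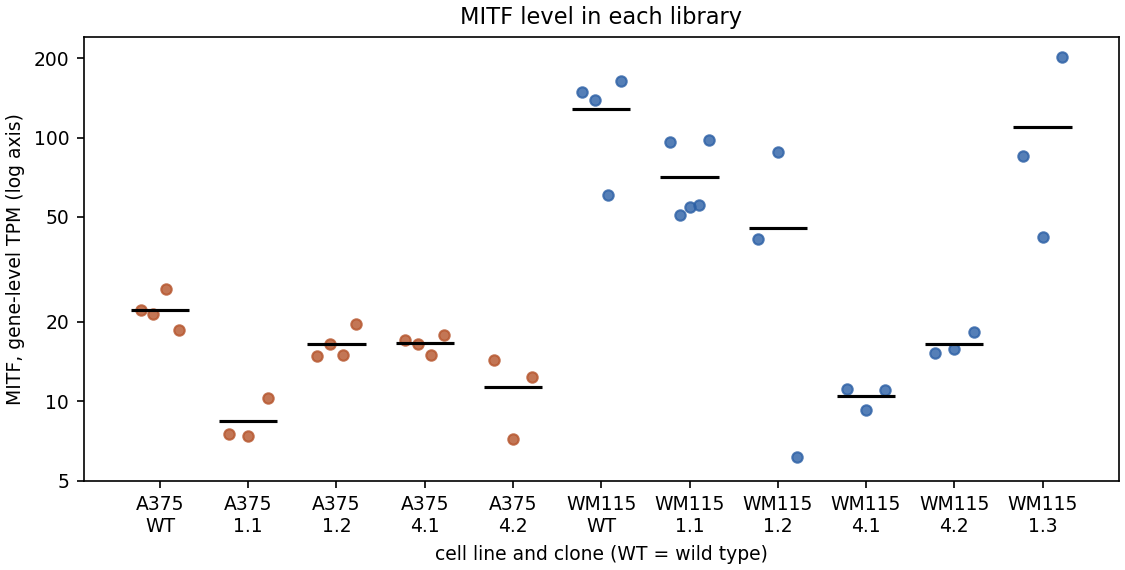
MITF level in TPM (log axis) in each of the 39 libraries by line and clone, with a bar at the group mean. WM115 WT has the highest mean, WM115 clone 1.2 spans the widest range on this axis (6.16 to 88.4 TPM), WM115 clones 4.1 and 4.2 sit between 9.25 and 18.3 TPM, and A375 clone 1.1 is the lowest group.

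In A375, MITF was called lower in clone 1.1 alone among the clones. Its libraries had 7.53, 7.41 and 10.3 TPM (8.41 ± 1.63, SD, n = 3), all under the lowest WT library. The log2 difference was -1.31 (SE 0.19, limma adjusted p = 0.00165), in a comparison with 0.545% of 16692 genes called lower. In clone 4.2 the values were 14.4, 7.23 and 12.3 TPM (11.3 ± 3.68, SD, n = 3), also all under WT. The log2 difference of -0.96 (SE 0.19, limma adjusted p = 0.0268) fell just short of the fold minimum, and 0.365% of genes were called lower there. Clone 1.2 had 14.9, 16.5, 14.9 and 19.7 TPM (16.5 ± 2.26, SD, n = 4), and its range overlapped WT (log2 difference -0.41, SE 0.18, limma adjusted p = 0.195; 1.44% of genes lower). Clone 4.1 had 17.0, 16.5, 15.0 and 17.9 TPM (16.6 ± 1.22, SD, n = 4), just under the lowest WT library, and the difference did not pass the test (-0.40, SE 0.18, limma adjusted p = 0.438; 0.407% of genes lower). The 2 R1 clones differed by -0.90 (SE 0.48, limma adjusted p = 0.185) and the 2 R4 clones by 0.56 (SE 0.48, limma adjusted p = 0.443) between each other, in contrasts with 6.46% and 3.38% of 15287 genes called. The call in clone 1.1 was lost when only these 2 groups were fitted (-1.31, limma adjusted p = 0.0557). The call in clone 4.2 appeared without WT library 4 (-1.03) or without its own library 1 (-1.14), and the difference shrank to -0.69 without its library 2 (limma adjusted p from 0.0138 to 0.226 over the libraries left out).

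In WM115, MITF fell furthest in both R4 clones. Clone 4.1 had 11.2, 9.25 and 11.1 TPM (10.5 ± 1.08, SD, n = 3) and clone 4.2 had 15.2, 15.8 and 18.3 TPM (16.5 ± 1.63, SD, n = 3). Every one of these 6 libraries lay far under the lowest WT library, and they were close to the level of A375. The log2 difference was -3.40 in clone 4.1 (SE 0.61, limma adjusted p = 0.000793; 4.37% of 16997 genes lower) and -2.80 in clone 4.2 (SE 0.61, limma adjusted p = 0.00412; 4.08% lower). R1 clone 1.1 exceeded R4 clone 4.1 by 2.59 (SE 0.46, limma adjusted p = 9.57e-05, 6.48% of 15287 genes called). Between both R4 clones the difference was -0.60 (SE 0.52, limma adjusted p = 0.595, 2.15% of 15287 genes called). In bulk RNA, fewer cells with MITF and less MITF per cell cannot be told apart. Among libraries on the high side of a mitochondrial share of 7.5%, which left 1 library of clone 4.1 and 2 of clone 4.2, the differences were -3.32 (limma adjusted p = 0.14) and -2.75 (limma adjusted p = 0.0647).

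The R1 clones and clone 1.3 of WM115 were more scattered. Clone 1.1 had 96.2, 51.0, 54.4, 55.6 and 98.1 TPM (71.0 ± 23.9, SD, n = 5), a range that overlapped WT, and was not called (-0.81, SE 0.54, limma adjusted p = 0.297; 3.66% of genes lower). Clone 1.2 had 41.4, 88.4 and 6.16 TPM, so that its library 3 was the lowest of all 39 while its library 2 was above 1 WT library. The clone was called (-2.01, SE 0.61, limma adjusted p = 0.0253; 3.11% of genes lower). The call went without library 3 (-0.97, limma adjusted p = 0.24), and also without WT library 1 (-1.90), 2 (-1.94) or 4 (-1.86), with limma adjusted p from 0.0579 to 0.0596. Clone 1.3 had 85.0, 42.1 and 202 TPM, on both sides of WT (-0.41, SE 0.61, limma adjusted p = 0.827; 0.194% of genes lower). Without its library 2 that difference was 0.13.

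Ordered by mean, the groups ran WM115 WT, 1.3, 1.1 and 1.2, then A375 WT, 4.1 and 1.2, WM115 4.2, A375 4.2, WM115 4.1 and A375 1.1. Neighbours in this order overlapped in every case but 2, A375 WT above A375 4.1 and WM115 4.2 above A375 4.2. Over the 8 clones with an undisputed region, R1 clones exceeded R4 clones by 0.75 on the log2 scale (SE 0.45, limma adjusted p = 0.996). In that comparison limma called 0 of 15287 genes (0%), with 658 at an unadjusted p under 0.05. The effect of clone 4.1 against WT was lower in WM115 than in A375 (an interaction of -3.0, SE 0.66, limma adjusted p = 0.00328), in a test that called 5.51% of 15287 genes. For the clones numbered 1.1, 1.2 and 4.2 the same interaction was 0.50, -1.60 and -1.84 (limma adjusted p = 0.693, 0.125 and 0.0805; 3.82%, 5.53% and 5.57% of genes called). Clones with the same number in both lines are separate clones.

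**Figure D3:**
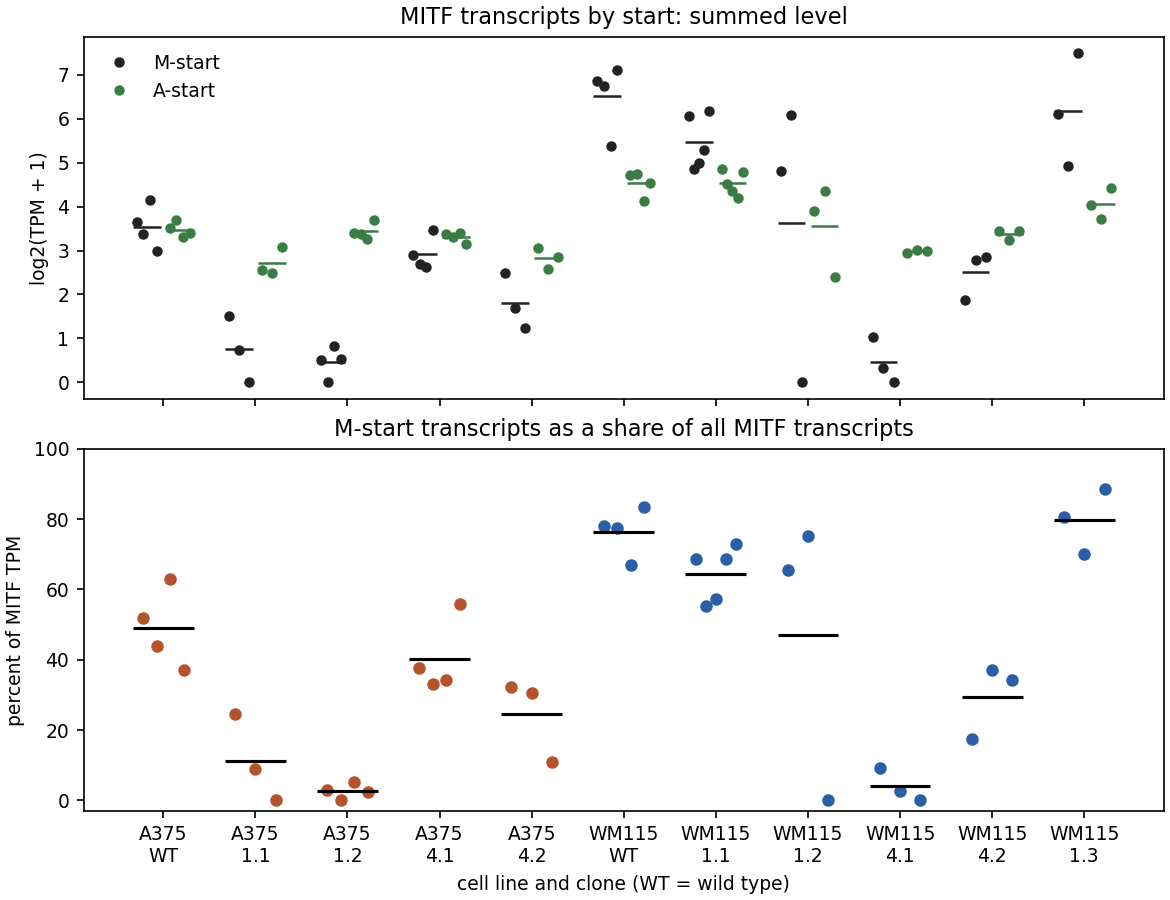
Summed level of M-start and A-start MITF transcripts on the log2(TPM + 1) scale (top) and M-start share in percent of MITF TPM (bottom), each library by line and clone, with a bar at each group mean. M-start values stay below 2 in A375 clones 1.1 and 1.2 and WM115 clone 4.1, whereas A-start values stay above 2 in every library.

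Splitting the gene by start showed that the M-start message carried most of these differences. In A375 clone 1.2, whose total overlapped WT through 1 of its 4 libraries and was not called, the M-start transcripts had 0.427, 0, 0.767 and 0.448 TPM against 11.5, 9.46, 16.8 and 6.92 TPM in WT. Its A-start transcripts had 9.52, 9.39, 8.59 and 12.0 TPM, in the same range as the 10.3, 12.0, 8.89 and 9.52 TPM of WT. Middle-start and H-start transcripts were also part of its total, at 4.37 ± 2.54 and 1.85 ± 1.56 TPM against 0.766 ± 1.02 and 0.132 ± 0.264 TPM in WT (SD, n = 4 each). Neither of these sums was tested. The gene total was thus not called in a clone with under 1 TPM of the melanocyte form in every library. On the log2(TPM + 1) scale the M-start sum fell by 3.08 (SE 0.35, limma adjusted p = 9.04e-05) and the A-start sum differed by -0.04 (SE 0.17, limma adjusted p = 0.961). These sums were set as rows among all transcripts after the data had been seen, and 0.454% of 55502 transcripts were called lower in this comparison. The M-start share was 2.87%, 0%, 5.14% and 2.27%, with no overlap with WT (exact permutation test, two-sided, p = 0.0286, the smallest possible; 0.0952 after Benjamini-Hochberg adjustment over 9 clones).

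A375 clone 1.1 lost M-start message as well. Its libraries had 1.85, 0.654 and 0 TPM from the M start (log2 difference -2.80, SE 0.38, limma adjusted p = 0.0029; 0.0721% of transcripts lower). Its A-start sums of 4.89, 4.61 and 7.496 TPM were under every WT library too, but did not pass the test (-0.77, SE 0.19, limma adjusted p = 0.202). The M-start call in this clone was lost at a pseudocount of 0.1 (limma adjusted p = 0.0535) and when only these 2 groups were fitted (limma adjusted p = 0.19). In clone 4.2 the M-start sums were 4.62, 2.21 and 1.36 TPM, all under WT (-1.74, SE 0.38, limma adjusted p = 0.179; 0.0541% of transcripts lower). In clone 4.1 they were 6.41, 5.43, 5.15 and 10.02 TPM and overlapped WT (-0.63, SE 0.35, limma adjusted p = 0.879; 0.0703% lower). The M-start share was 24.6%, 8.83% and 0% in clone 1.1, 24.6% ± 11.8 in clone 4.2 (SD, n = 3) and 40.2% ± 10.7 in clone 4.1 (SD, n = 4). The first 2 did not overlap WT (exact permutation test, two-sided, p = 0.0571 each, the smallest that 3 against 4 libraries allow), and clone 4.1 did (exact p = 0.314).

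In WM115 both R4 clones lost M-start message, and clone 4.1 lost nearly all of it. Clone 4.1 had 1.04, 0.253 and 0 TPM from the M start and clone 4.2 had 2.64, 5.87 and 6.26 TPM, against 116, 107, 40.5 and 137 TPM in WT. The log2 differences were -6.08 (SE 0.95, limma adjusted p = 0.00102; 2.09% of 58068 transcripts lower) and -4.03 (SE 0.95, limma adjusted p = 0.0203; 1.61% lower). A-start transcripts fell too, by less, from 25.2, 25.9, 16.5 and 22.4 TPM in WT to 6.64, 7.12 and 6.98 TPM in clone 4.1 and 9.96, 8.46 and 9.93 TPM in clone 4.2. Those log2 differences were -1.55 (SE 0.32, limma adjusted p = 0.00737) and -1.15 (SE 0.32, limma adjusted p = 0.0436). The M-start share was 9.31%, 2.73% and 0% in clone 4.1 and 17.3%, 37.1% and 34.2% in clone 4.2, in neither case overlapping WT (exact permutation test, two-sided, p = 0.0571 each, the smallest possible; 0.0952 adjusted over 9 clones). In clone 4.2 the M-start call was lost without WT library 1 (-3.91), 2 (-3.95) or 4 (-3.83) or its own library 1 (-3.71) or 2 (-4.17), and the A-start call without WT library 1 (-1.09), 2 (-1.08) or 4 (-1.15) or its own library 1 (-1.19), 2 (-1.08) or 3 (-1.19). At a pseudocount of 0.1 neither was called in this clone (limma adjusted p = 0.107 and 0.0529), and the A-start call was also lost without a filter (0.0883, limma) and with median-of-ratios scaling (-1.03, limma adjusted p = 0.0662).

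The remaining WM115 clones kept a wide M-start range. Clone 1.1 had 66.0, 28.2, 31.1, 38.1 and 71.6 TPM from the M start (-1.05, SE 0.83, limma adjusted p = 0.506; 1.40% of transcripts lower) and an A-start mean of 22.6 ± 4.58 TPM (SD, n = 5), next to 22.5 in WT. Its M-start share of 64.5% ± 7.81 (SD, n = 5) overlapped WT (exact permutation test, two-sided, p = 0.0635). Clone 1.2 had 27.2, 66.6 and 0 TPM from the M start, the 0 being library 3 (-2.90, SE 0.95, limma adjusted p = 0.0862; 1.07% lower), and a call appeared only when its library 2 was left out (-4.12, limma adjusted p = 0.0144). Clone 1.3 had 68.5, 29.5 and 180 TPM (-0.35, SE 0.95, limma adjusted p = 0.968; 0.0224% lower) and a share of 79.8% ± 9.29 (SD, n = 3). After adjustment over the 9 clones no share comparison fell under 0.05, with 1 of 9 at an unadjusted exact p under 0.05. Across libraries of WM115, the M-start share and the MITF level on the log2 scale had a Pearson r of 0.95 (n = 21), and across those of A375 of 0.47 (n = 18). These are descriptions over libraries that share clones, and the level contains the M-start transcripts.

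Single transcripts followed the sum of their start only in part. MITF-201, the M-start form without the 18 bases, was called lower in A375 clone 1.1 (-2.70, SE 0.35, limma adjusted p = 0.00185) and clone 1.2 (-2.94, limma adjusted p = 6.28e-05) and in WM115 clone 4.1 (-5.21, limma adjusted p = 0.00104) and clone 4.2 (-3.20, limma adjusted p = 0.0298). The last call was lost when any WM115 WT library but library 3, or any library of the clone, was left out (-3.40 to -2.84), and at a pseudocount of 0.1 or without a filter (limma adjusted p = 0.158 and 0.0676). In A375 clone 1.1 the call was lost at a pseudocount of 0.1 (limma adjusted p = 0.05) and with only 2 groups fitted (limma adjusted p = 0.146). MITF-205, the form with the 18 bases, was listed at 58.9, 48.6, 13.9 and 61.7 TPM in WM115 WT and at 0 in all 6 libraries of clones 4.1 and 4.2 (limma adjusted p = 0.00108 and 0.0017). In A375 it was listed at 0 in 15 of 18 libraries and reached 4.24 TPM in WT library 3. Among A-start forms, MITF-216 was called lower in WM115 clone 4.1 (-1.64, SE 0.41, limma adjusted p = 0.0228). That call was lost without WT library 1 (-1.42) or 4 (-1.59) or library 1 (-1.49) or 3 (-1.57) of the clone. With all libraries MITF-203 was called in no clone (-1.12 in WM115 clone 4.1, limma adjusted p = 0.0686, and -0.66 in clone 4.2, limma adjusted p = 0.33). In clone 4.1 a call of MITF-203 appeared without WT library 1 (-1.42, limma adjusted p = 0.0269) or without library 3 of clone 1.2 (-1.12, limma adjusted p = 0.0417). MITF-216 was not called in WM115 clone 4.2 (-1.29, limma adjusted p = 0.0764), where the A-start sum was. It was called there without WT library 3 (-1.54, limma adjusted p = 0.0339) or without library 3 of clone 1.2 (-1.29, limma adjusted p = 0.0216).

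The middle-start transcript MITF-212 was the only one called higher. It was listed at 0 in all 4 WM115 WT libraries and at 3.30, 0.896 and 3.17 TPM in clone 4.1 (limma adjusted p = 0.0143; 1.51% of transcripts called higher). In A375 it was listed at 0, 0, 0 and 2.28 TPM in WT and at 0.493, 5.45, 3.06 and 4.68 TPM in clone 1.2, which did not pass the test. Together the middle-start transcripts held 31.2%, 20.2% and 28.6% of MITF TPM in WM115 clone 4.1 against 0.380%, 0.520%, 0.698% and 0% in WT. They also held 30.1% in library 3 of WM115 clone 1.2, the library with the lowest MITF level. Only the first exon of MITF-212 is its own. Its next exon is absent from MITF-201 and shared with the A-start forms MITF-203 and MITF-216. Its later exons and short 3′ end are nearly those of MITF-201. More use of the MITF-212 start and a different assignment of reads between these transcripts therefore cannot be told apart. The call of MITF-212 was not refitted under the alternatives. Over 45 comparisons of single-transcript shares, 2 had an unadjusted exact p under 0.05 and 0 an adjusted one.

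MITF-205 was a larger part of the M-start message where MITF was higher. MITF-205 made up 51.0%, 45.7%, 35.1% and 46.5% of both forms in WM115 WT, 30.99% to 42.6% in clone 1.1, and 43.3%, 41.0% and 50.7% in clone 1.3. It made up 0% in every library of WM115 clones 4.1 and 4.2 where either form was above 0. Over the 19 WM115 libraries with either form, that percentage and the MITF level had a Pearson r of 0.94, a description over libraries that share clones and in which low levels leave few reads to split. In A375 the percentage ran from 0 to 25.2 over 16 libraries.

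The relation to SOX10 differed by line and by start. SOX10 had 443 ± 27.8 TPM in A375 clone 1.2 (SD, n = 4), with a log2 difference from WT of -0.62 (SE 0.15, limma adjusted p = 0.0135) that is under the fold minimum, and 513 ± 144 TPM in clone 1.1 (SD, n = 3). These are the A375 clones in which the M-start sum was called lower. Clone 4.2, whose M-start sums also lay under every WT library without a call, had 559 ± 80.9 TPM of SOX10 (SD, n = 3). Clone 4.1 had 777 ± 71.1 TPM and WT 682 ± 35.6 TPM (SD, n = 4 each). Over the 18 A375 libraries SOX10 and the M-start sum, both as log2(TPM + 1), had a Pearson r of 0.89, and of 0.79 once group means were removed. The A-start sum had 0.15 and -0.24, and the whole gene 0.34 and -0.07, so the gene total did not show the relation. In A375 the libraries with lower SOX10 thus tended to have less M-start message. These values describe libraries that share clones and carry no p-value, and A375 has only 5 groups.

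In WM115 the R4 clones separated the pair. SOX10 was 465, 360 and 390 TPM in clone 4.1 and 506, 321 and 438 TPM in clone 4.2, in each case overlapping the 449 to 553 TPM of WT (log2 differences -0.33 and -0.28, SE 0.70 each, limma adjusted p = 0.773 and 0.804). Libraries 2 and 3 of both clones lay under the lowest WT library. The SE rests on the spread over all WM115 libraries, library 3 of clone 1.2 among them, so these p-values cannot show that SOX10 was unchanged. MITF was at its lowest group level for the line in these same clones. In clone 1.2 SOX10 was called lower (-2.44, SE 0.70, limma adjusted p = 0.0192) and had 279, 272 and 9.56 TPM. Over the 6 group means of WM115, SOX10 and MITF had a Pearson r of 0.24 (exact permutation p = 0.774, 0.836 adjusted over 3 relations) and a Spearman rho of 0.71 (exact permutation p = 0.136, 0.204 adjusted). Without the 2 groups farthest from the median SOX10 level r was 0.59, and without library 3 of clone 1.2 it was 0.14 (exact permutation p = 0.767). For M-start sums r was 0.18 and for A-start sums 0.29 (exact permutation p = 0.836 and 0.653). Over the 21 libraries r for MITF was 0.47, and 0.79 with group means removed, which became 0.30 and 0.49 without library 3 of clone 1.2.

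**Figure D4:**
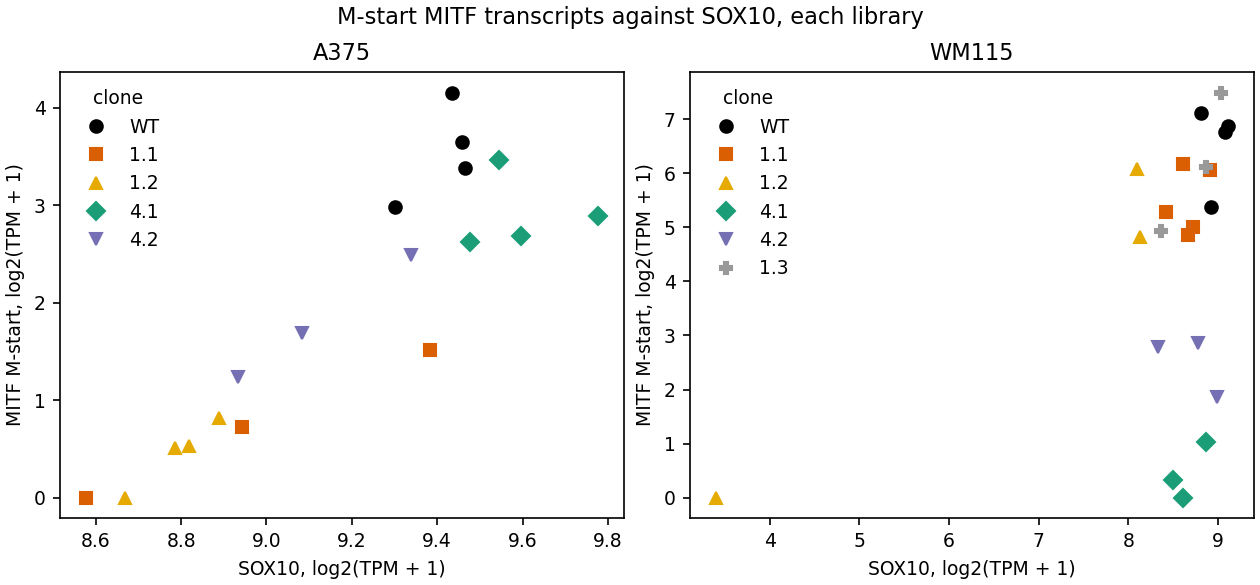
Summed M-start MITF transcripts against SOX10, both on the log2(TPM + 1) scale, each of the 18 A375 libraries (left) and 21 WM115 libraries (right), with symbols by clone. In A375 the points rise together, and in WM115 the libraries of clones 4.1 and 4.2 lie low at a SOX10 level near that of WT, with library 3 of clone 1.2 far to the left.

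Other known regulators of MITF were read from lists of 12 activators and 8 repressors, of which 11 and 8 were tested in each line. TFAP2A, a transcription factor that acts with MITF on melanocyte genes, had 88.3, 86.8, 51.6 and 111 TPM in WM115 WT, 19.1, 13.99 and 20.8 TPM in clone 4.1 and 22.5, 18.8 and 19.9 TPM in clone 4.2. Both clones lay under every WT library (-2.14, limma adjusted p = 1.56e-05, and -1.95, limma adjusted p = 7.79e-05, SE 0.25 each). Clone 4.1 also had lower CTNNB1, the beta-catenin of WNT signalling (-1.23, limma adjusted p = 0.000435), and clone 4.2 lower ZEB2 (-1.26, limma adjusted p = 0.0034), so that 2 of 11 activators were called lower in each, against 4.37% and 4.08% of all genes called lower. In WM115 clone 1.2 the 2 lower activators were SOX10 and EDNRB, the endothelin receptor of melanoblasts (-3.01, limma adjusted p = 0.0194; 3.11% of genes lower), and in clone 1.1 CTNNB1 was lower (-1.03, limma adjusted p = 0.000628; 3.66% lower). In A375 clone 1.2, 3 of 11 were lower, namely SNAI2 (-2.71, limma adjusted p = 2.97e-06), EDNRB (-1.76, limma adjusted p = 0.0149) and LEF1 (-1.20, limma adjusted p = 0.00102), where 1.44% of genes were called lower. Of the repressors, ZEB1 was called higher in WM115 clone 4.2 (1.32, limma adjusted p = 0.00294), and in WM115 clone 1.2 JUN was higher (1.05, limma adjusted p = 0.0408) and POU3F2 lower (-1.99, limma adjusted p = 0.0256).

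Neither of the 2 tested paralogues of MITF was called by limma in any clone, and 0 to 2 had an unadjusted p under 0.05 in each. TFE3, which like MITF binds E-boxes and acts on lysosomal genes, had group means between 30.6 and 57.5 TPM, and TFEB between 1.40 and 6.33 TPM. TFEB was lower than WT in WM115 clones 1.2, 4.1 and 4.2 by less than the fold minimum (-0.80, -0.71 and -0.68, limma adjusted p = 0.0187, 0.0289 and 0.0413). TFEC stayed under 0.4 TPM in all libraries, at most 0.338, and was not tested. In level per length, mean TFE3 therefore exceeded mean MITF in every A375 group and in WM115 clones 4.1 and 4.2, and in WM115 clone 1.2 the means were close (48.1 and 45.3 TPM).

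Known MITF targets were read from a list of 15 pigment and melanosome genes, of which 14 were tested in WM115. In clone 4.1, 11 of 14 were called lower and 0 higher (4.37% of all genes were called lower), with a median log2 difference of -2.87 against -0.10 over all genes tested. In clone 4.2, 9 were lower and 1 higher (4.08% of genes lower and 2.52% higher), with a median of -2.41 against -0.10. DCT, an enzyme of eumelanin synthesis, shows the size of the change, with 785, 681, 215 and 1685 TPM in WT, 7.08, 2.37 and 13.7 TPM in clone 4.1 and 3.89, 8.72 and 2.71 TPM in clone 4.2 (-6.50 and -6.89, limma adjusted p = 0.00103 and 0.000959). CAPN3, a protease gene with an MITF-driven form in melanocytes, fell from 369, 312, 60.5 and 490 TPM to 1.095, 0.474 and 2.64 TPM in clone 4.1 (-6.76, limma adjusted p = 0.000138). The melanosome genes GPNMB (-3.20 and -2.82), MLANA (-4.13 and -4.07) and TYRP1 (-4.33 and -4.84) fell in both clones, with limma adjusted p from 4.91e-05 to 0.00301. GPR143, a melanosomal receptor, was the 1 called higher in clone 4.2, at 2.26, 1.27 and 6.08 TPM against 0.059 to 0.347 TPM in WT (1.71, limma adjusted p = 0.000352).

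The other WM115 clones changed fewer of these genes. Clone 1.2 had 6 of 14 lower and 0 higher (median -1.48 against -0.02 over all genes; 3.11% of genes lower), DCT among them at 13.0, 148 and 0 TPM (-5.70, limma adjusted p = 0.00425). Clone 1.1 had 3 lower (median -1.20 against -0.12; 3.66% lower), which were RAB27A, the melanosome transport GTPase (-1.92, limma adjusted p = 0.000183), TYR, the first enzyme of melanin synthesis (-2.24, limma adjusted p = 0.021), and TRPM1 (-1.22, limma adjusted p = 0.0175). Clone 1.3 had 0 called by limma, with 3 of 14 at an unadjusted p under 0.05 (median -0.32 against -0.03; 0.618% called). All 5 comparisons share the WT libraries. Beside these medians, the MITF differences were -0.81 in clone 1.1, -2.01 in clone 1.2, -3.40 in clone 4.1, -2.80 in clone 4.2 and -0.41 in clone 1.3.

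Among 15 targets with other functions, 6 were lower in WM115 clone 4.1 and 6 in clone 4.2, and 0 were higher (medians -0.99 and -1.01, against -0.10 over all genes in both; 4.37% and 4.08% of all genes lower). Called in both were ACP5, a lysosomal phosphatase (-2.78 each, limma adjusted p = 8.05e-05 and 0.000139), PPARGC1A, a coactivator of mitochondrial biogenesis (-3.03 and -3.12, limma adjusted p = 0.00348 and 0.00376), ASAH1 and SCD. CDK2, the cell cycle kinase, was lower in clone 4.1 (-1.40, limma adjusted p = 0.0046), and BCL2, the survival factor, in clone 4.2 (-1.01, limma adjusted p = 0.011). In clone 1.2, 3 were lower and 1 higher (median -0.93 against -0.02; 3.11% of all genes lower and 4.49% higher). In clone 1.1, 1 was lower, a share near the background of 3.66% of all genes, and 2 were higher (median -0.44 against -0.12; 1.22% of all genes higher), BIRC7 (2.31, limma adjusted p = 0.00354) and CEACAM1 (1.76, limma adjusted p = 0.0042). Counting both target lists, leaving out library 3 of clone 1.2 lowered that clone's calls from 10 to 3, and leaving out WT library 3 raised the calls of clone 1.2 to 16 and of clone 1.1 from 6 to 10. Leaving out library 2 of clone 4.2 lowered its calls from 16 to 10. Within the high mitochondrial side, 7 were called in clone 4.2 against 16, and clone 4.1 kept 1 library, too few for a count. The share of all genes called in these refits was not set beside these counts, so they show no change particular to the targets.

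**Figure D5:**
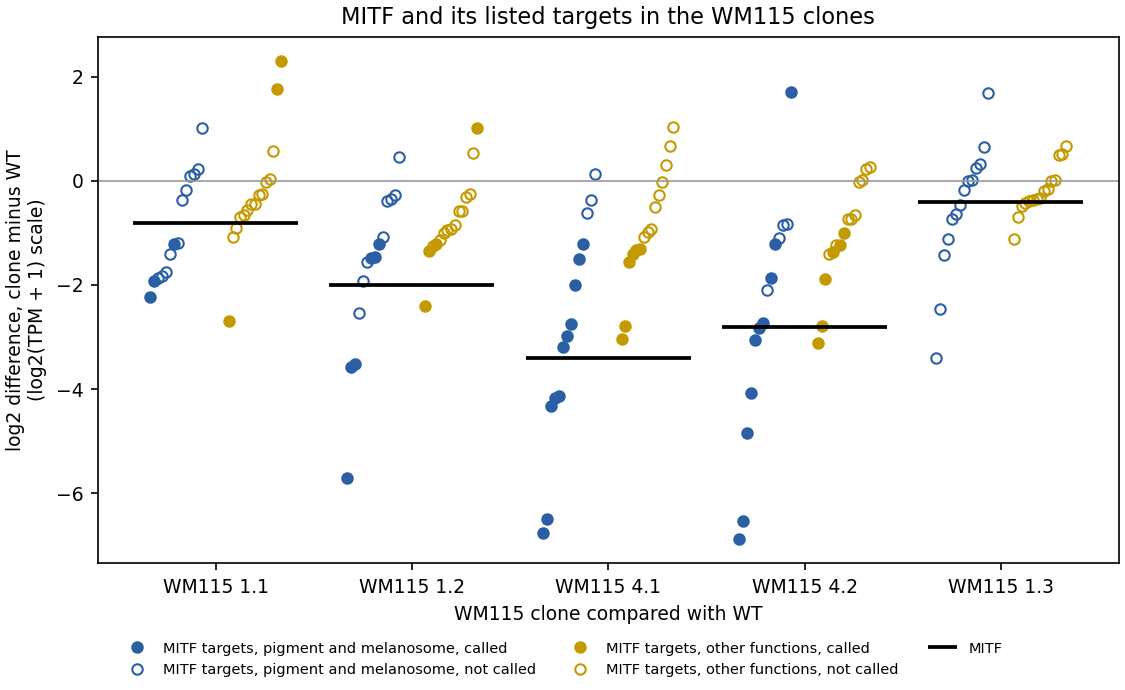
Log2 difference from WT (log2(TPM + 1) scale) of MITF (black bar) and of the tested targets in each WM115 clone, filled where called. Pigment and melanosome targets reach below -6 in clones 4.1 and 4.2, and none is called in clone 1.3.

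In A375 most pigment targets gave no reading. Only 5 of 15 passed the filter of 1 TPM in at least 3 libraries, namely GPNMB, MREG, MYO5A, PMEL and RAB27A, and 10 stayed under 1 TPM in every library. In clones 1.1, 1.2, 4.1 and 4.2 limma called 0 of the 5, with 2, 1, 2 and 1 at an unadjusted p under 0.05 (0.731%, 4.01%, 0.653% and 0.473% of genes called). GPNMB, for example, had 62.5 to 134 TPM in WT and 57.0 to 155 TPM in clone 1.2, the clone with the least M-start message. Of 12 tested targets with other functions, BCL2A1, a survival gene, was called lower in clone 1.2 (-1.14, limma adjusted p = 0.0241). That call was lost without WT library 3 or without library 1 or 4 of the clone. In a fit of clone 4.1 and WT alone, limma called 0 targets of both lists without the replicate block and 1 with it. The share of all genes called was not set beside these counts.

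Genes known to be high in melanomas low in MITF were read from a list of 14. In WM115 clone 1.2, 8 of 14 were higher and 0 lower (median 1.58 against -0.02 over all genes; 4.49% of genes higher). In clone 4.1, 4 were higher (median 1.07 against -0.10; 3.20% higher), and in clone 4.2, 3 were higher (median 0.76 against -0.10; 2.52% higher). WNT5A, a non-canonical WNT ligand, rose in both R4 clones (2.10 and 1.98, limma adjusted p = 0.0069 and 0.0115). AXL, a receptor kinase of the invasive state, had 44.6, 58.5, 144 and 33.8 TPM in WT and 151, 138 and 195 TPM in clone 4.2 (1.40, limma adjusted p = 0.0366), overlapping through WT library 3. In clone 1.1, AXL was higher (1.29, limma adjusted p = 0.0269; 1.22% of genes higher) and EGFR and INHBA were lower (-1.81 and -1.27, limma adjusted p = 0.000114 and 0.0268). In A375 clone 1.2, 4 of 13 were higher (median 1.01 against 0.07; 2.57% of genes higher), among them AXL (1.48, limma adjusted p = 0.00401) and EGFR (1.38, limma adjusted p = 0.000419), and in clone 1.1, 2 were higher (0.186% of genes higher), among them EGFR (1.13, limma adjusted p = 0.0187). In A375 clone 4.1, 1 of 13 was higher (0.246% of genes higher). For A375 clone 4.2 and WM115 clone 1.3 limma called 0, with 0 and 5 at an unadjusted p under 0.05 (0.108% and 0.424% of genes higher).

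Genes around MITF differed far less than MITF itself in the WM115 R4 clones. Of 26 other tested genes within 5 Mb, limma called 0 in clones 4.1 and 4.2, where 7.57% and 6.60% of all genes were called. There were 8 and 3 at an unadjusted p under 0.05, and their differences ran from -0.83 to 0.78 and from -0.81 to 0.84 (medians -0.23 and -0.03, against -0.10 over all genes in both). In A375 clone 1.1 limma called 0 of 22 (0.731% of all genes), with 3 at an unadjusted p under 0.05 and a range of -0.84 to 0.54. In A375 clone 1.2, 3 of 22 were called (4.01% of all genes), 1 higher and 2 lower, and 7 lay below MITF. In WM115, 1 of 26 was called in clone 1.1, CNTN3 (lower; 4.88% of all genes), and 2 in clone 1.2, CNTN3 and LRIG1 (1 higher and 1 lower; 7.61%), genes named after their values were seen.

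The genes whose level was most like MITF over the libraries of a line were named by Pearson's r on the log2(TPM + 1) scale, as a description. Over 18 A375 libraries and 16691 genes they were LYST (0.91), STXBP6 (0.85), ST6GALNAC3 (0.84), IL6R (0.82) and RGMA (0.80). Over 21 WM115 libraries and 16996 genes they were TBC1D14 (0.97), CAPN3 (0.96), AC110285.1 (0.96), TMCC2 (0.95) and LINC01579 (0.95). By the smaller r of both lines they were LYST (0.91 in A375 and 0.93 in WM115), IL6R (0.82 and 0.86), RGMA (0.80 and 0.80), IFT81 (0.78 and 0.94) and ST8SIA1 (0.74 and 0.79). LYST, the lysosomal trafficking gene of Chediak-Higashi syndrome, was thus highest by this measure and had means of 11.6 TPM in A375 WT, 4.2 TPM in A375 clone 1.1, 120 TPM in WM115 WT and 13.7 and 13.1 TPM in WM115 clones 4.1 and 4.2. SOX10 ranked 3001 of 16691 in A375 (r 0.34) and 3156 of 16996 in WM115 (r 0.47).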

How the data were processed

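Polyadenylated RNA was captured and copied with random hexamers, per the labels' protocols. The deposited values are TPM per gene and per transcript, and the submitters' processing notes name DRAGEN and GRCh38 without versions. The annotation release and strand setting are not given in the sources used here. Repeated lines (200 gene, 1123 transcript) were used once. A further 6 columns per table, named as other wild-type sets, match no sample and were not used.

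A pseudocount of 1 was added before the log2. Each line was fitted separately in limma 3.58.1 (R 4.3.3) with a variance trend, on features with at least 1 TPM in at least 3 libraries. Differences on this scale understate the change of low genes. P-values are two-sided and were Benjamini-Hochberg adjusted over all features tested. The fit was tested on simulated data. Shares were compared with exact permutation tests in scipy 1.17.1 (Python 3.11.15). The WT libraries of both lines were compared in a fit of their own, and contrasts between clones and interactions with line came from a fit over all libraries. Positions are from GENCODE 29, promoters from RefSeq.

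The genes named are MITF, SOX10, the members of the lists and the 5 genes most like MITF per line and over both. Members, lists and tests were chosen with earlier results of these data known. Alternatives covered the pseudocount, filter, scaling, variance trend, mitochondrial share, groups fitted, replicate block and each library left out. Replicate numbers paired A375 clone 4.1 with WT by deviations that correlated at 0.326 to 0.776 in all 4 pairs, and paired no other clone. One listed gene is not reported by name here.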

Additional observations from a re-analysis of the deposited data

Results flagged for a closer look

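The effect of clone 4.1 on MITF differed between the lines by a test of the difference itself. MITF was lower than WT by 3.40 in WM115 and by 0.40 in A375 on the log2(TPM + 1) scale, and the interaction was -3.0 (SE 0.66, limma adjusted p = 0.00328). The MITF level was lower in 3 of 3 WM115 libraries and 4 of 4 A375 libraries of clone 4.1 than in every WT library of the line. The clones are separate in each line, so line and clone cannot be told apart. Of 25 sets of values from groups of 4 or 5 libraries examined for a single distant value, 0 held one. Only A375 WT, 1.2 and 4.1 and WM115 WT and 1.1 are groups of that size, so these sets reuse the same libraries. Groups of 3 libraries were not examined, WM115 clone 1.2 with its distant library 3 among them.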

How the results depend on the processing

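A fit of only 2 groups left MITF at -1.31 in A375 clone 1.1 and -2.01 in WM115 clone 1.2, neither called, and without a filter clone 1.2 was at -2.01 and also not called. Within the high mitochondrial side the WM115 differences were -2.01 (clone 1.2), -3.32 (4.1) and -2.75 (4.2), none called, with fewer libraries. In A375 clone 4.2 a pseudocount of 0.1 gave -1.02 and median-of-ratios scaling -1.01, both called. The replicate block was fitted with only 2 groups, so it is set beside the fit of 2 groups without it. With the block MITF was at -1.39 in A375 clone 1.1 and -1.86 in WM115 clone 1.2, where the fit of 2 groups had already ended the call, and the block changed no call of the gene, clone 4.1 of A375 included (-0.40, limma adjusted p = 0.0858). The start and transcript calls of A375 clone 1.1 were likewise lost with 2 groups, a refit chosen after seeing the data. Those refitted in WM115 clones 4.1 and 4.2 held with 2 groups and were lost with the block, where the numbers pair no libraries. The A-start sum of WM115 clone 1.1 was -0.06 with the block, against 0.01. Leaving out 1 library each, MITF ran from -1.14 to -0.69 in A375 clone 4.2, from -2.79 to -0.97 in WM115 clone 1.2 and from -0.99 to 0.13 in clone 1.3, where the M-start share difference ran from -1.03 to 8.23 percentage points. Signs also turned for differences that no setting called: MITF-216 in A375 clone 4.1 (0.00 with median-of-ratios scaling, -0.21 to 0.19 over libraries left out, with 0.12 and 0.03 among them), MITF-203 in WM115 clone 1.1 (-0.51 to 0.03), the A-start sums of A375 clone 1.2 (-0.13 to 0.03, with 0.01) and WM115 clone 1.1 (-0.13 to 0.09, with -0.08 and -0.06), and, without library 2 of WM115 clone 1.3, MITF-201 (0.21, lowest -0.94), MITF-205 (0.34, lowest -1.07), MITF-216 (0.01, lowest -0.47) and the M-start sum (0.28, lowest -1.0). The number of targets called in WM115 was 6, 10, 17 and 16 in clones 1.1, 1.2, 4.1 and 4.2, against 8, 3, 17 and 17 with 2 groups fitted and 10, 0, 9 and 9 with the block added, and 3 in clone 1.1 at a mean of at least 5 TPM. On the high mitochondrial side it was 1, 4 and 7 in clones 1.1, 1.2 and 4.2. In A375 it went between 0 and 2 in clone 1.2 (1 as reported) and from 0 to 1 in clone 4.1 with the mitochondrial share as a term, or with the block added to the fit of 2 groups (0 without it). The share of all genes called in each refit was not set beside these counts, and the cause of these changes was not tested. A375 WT against WM115 WT kept its call under all 12 alternatives (-2.71 to -2.24), and clone 4.1 of WM115 under all but the mitochondrial side. Depth is unknown, so no limit of detection could be set for transcripts listed at 0.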
